A study of Mus musculus with 31 samples.

Results

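The potassium channel genes are those whose symbol begins with Kcn, the shared stem of the genes for the pore-forming and auxiliary subunits of potassium channels. The arrays named 97 of them, through 133 probes, among 19902 gene symbols, counted without the Rik symbols, which were left out. Each gene was read from its brightest probe. A gene was tested in a group where that probe lay well above background in either dye on at least 66.7% of the arrays. By this rule 67 genes were tested in all 8 groups, 13 in some groups and 17 in none. The data were 31 whole mouse genome arrays, each co-hybridised with a Cy3 and a Cy5 sample of RNA from the forebrain hemispheres of NMRI mice, pooled from several animals, treated on postnatal day 5.

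In the Mg groups, mice given 600 mg/kg MgSO4 (Cy5) were set against mice given none (Cy3) on 4 arrays each at 3, 12 and 24 h and on 7 arrays at 6 h. The methods give only 3 independent samples per time there, so n counts arrays. By the labels, this was a subcutaneous injection with PBS controls, and by the methods an intraperitoneal injection with untreated controls. In the HI groups, mice after hypoxia-ischemia (HI), which is ligation of the right carotid artery followed by hypoxia, were set in Cy5 against naive mice in Cy3 at 3 h and at 12 h, with 3 arrays each. Their treatment label names MgSO4, against the titles and the source, and was set aside, so that these mice count as HI alone. The MgHI groups, 3 arrays at 3 h and 3 at 12 h, held mice with both MgSO4 and HI against a reference that the sources describe differently. The titles name MgSO4-treated uninjured mice as the reference, the methods PBS-treated HI mice, and figures place MgHI in Cy3. MgHI values are therefore given by dye, as higher or lower in Cy5, with no treatment named as the higher one. No dye was swapped in any group.

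Potassium channels let potassium leave the cell and so set the resting potential, the shape of the action potential and the rate of firing. Voltage-gated (Kv) channels repolarise neurons, and the silent subunits of the Kv5, Kv6, Kv8 and Kv9 families act only by joining other Kv subunits. Kcne, Kcnab and Kcnip proteins are auxiliary subunits. Inward rectifiers and leak channels with a pair of pore domains hold the resting potential, and ATP-sensitive channels open when cell energy falls. In the immature forebrain the set of channels changes as neurons mature.

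Expression was broad. Well-above-background signal was found in both dyes on all 31 arrays for 40 of the 97 genes and on none for 8. Tested somewhere were 7 of 8 Kv1 genes, 4 of 4 Kv3 genes, 3 of 3 Kv4 genes, 12 of 15 inward rectifiers and 11 of 14 leak channels. Not tested in any group were Kcna10, Kcnab2, Kcne1, Kcng3, Kcng4, Kcnh6, Kcnj1, Kcnj15, Kcnj2, Kcnk18, Kcnk5, Kcnk7, Kcnmb1, Kcnmb3, Kcnmb4os1, Kcnn1 and Kcnv2. Of all spots, 45.2% to 70.2% were well above background per array and dye, and none was saturated. At 3 h after HI, 13 of 13 immediate early genes tested were called higher, with a median log2 ratio of 2.34. In pooled tissue, fewer cells of a type and less RNA per cell cannot be told apart.

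Promoters of the genes were searched for letters bound by factors that respond to activity or low oxygen, since the largest ratios were measured after HI. RefSeq (GRCm38.p6) held 96 promoter windows of 300 bases for 71 of the genes, and 32851 windows in all. The letters searched, on both strands, were TGACGTCA (cyclic AMP response element, CRE), TGACG (the CRE core, which also lies inside the full element), TGACTCA (AP-1) and ACGTG (hypoxia response core). The full CRE was in 0 of the 96 windows, against 1.79% of all windows, and AP-1 letters were in 2 (2.08%), those of Kcnip3 and Kcnk2, against 5.2%. TGACG was in 19 windows (19.8%), against 20.8%, and ACGTG in 17 (17.7%), against 19.6%. Shown are a window of Kcne3 and of Kcne2, the genes with the highest and the lowest ratio at 3 h after HI, and the AP-1 window of Kcnk2, with the matched letters in capitals.
Kcne3, chr7:100176420-100176719, plus strand: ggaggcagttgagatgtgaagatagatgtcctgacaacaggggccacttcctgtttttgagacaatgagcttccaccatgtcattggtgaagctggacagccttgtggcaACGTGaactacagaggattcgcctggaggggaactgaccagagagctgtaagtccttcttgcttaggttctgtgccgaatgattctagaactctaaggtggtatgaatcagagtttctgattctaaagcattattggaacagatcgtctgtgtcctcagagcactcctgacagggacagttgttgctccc
Kcne2, chr16:92292139-92292438, plus strand: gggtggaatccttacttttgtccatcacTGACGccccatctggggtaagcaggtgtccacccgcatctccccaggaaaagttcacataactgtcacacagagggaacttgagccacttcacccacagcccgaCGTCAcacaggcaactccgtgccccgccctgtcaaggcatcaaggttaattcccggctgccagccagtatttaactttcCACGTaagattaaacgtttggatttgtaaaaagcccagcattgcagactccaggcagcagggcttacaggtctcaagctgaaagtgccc
Kcnk2, chr1:189344143-189344442, minus strand: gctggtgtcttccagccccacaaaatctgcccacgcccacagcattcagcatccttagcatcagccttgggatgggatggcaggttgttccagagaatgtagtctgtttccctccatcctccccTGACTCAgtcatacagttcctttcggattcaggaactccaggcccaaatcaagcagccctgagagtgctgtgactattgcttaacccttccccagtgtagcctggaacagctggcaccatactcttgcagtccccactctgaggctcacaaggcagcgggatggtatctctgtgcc
The Kcne3 window held 1 ACGTG. The Kcne2 window held 2 TGACG matches and 1 ACGTG match, and the Kcnk2 window 1 AP-1 match. The other windows of these genes, not shown, held no match. A match is a string of letters and not a measured binding site.

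At 3 h after HI, 7 of 72 potassium channel genes tested (9.72%) were called, against 3.81% of all 14545 genes tested. Called means an adjusted p under 0.05 by limma and a change of at least 1.5-fold. Kcne3, Kcna4, Kcnk15 and Kcnf1 were called higher, and Kcne2, Kcns3 and Kcnj8 were called lower, against 2.41% and 1.4% of all genes. The median of the 72 log2 ratios was 0.06, against -0.03 over all genes tested. At an unadjusted p under 0.05, 14 genes were higher (19.4%, against 15.4% of all genes) and 12 lower (16.7%, against 21.7%). The count of calls was 3 without array 1, 5 without array 2 and 7 without array 3. These were 4.17%, 6.94% and 9.72% of the genes tested, against 1.67%, 3.3% and 3.89% of all genes. Kcne3, Kcna4 and Kcne2 were called each time. The count was 3 (the same genes) under each of the other background corrections, and 1 (Kcne3) with no filter on dim probes. By the methods' t-test with its adjustment, 0 genes were called.

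**Figure D1:**
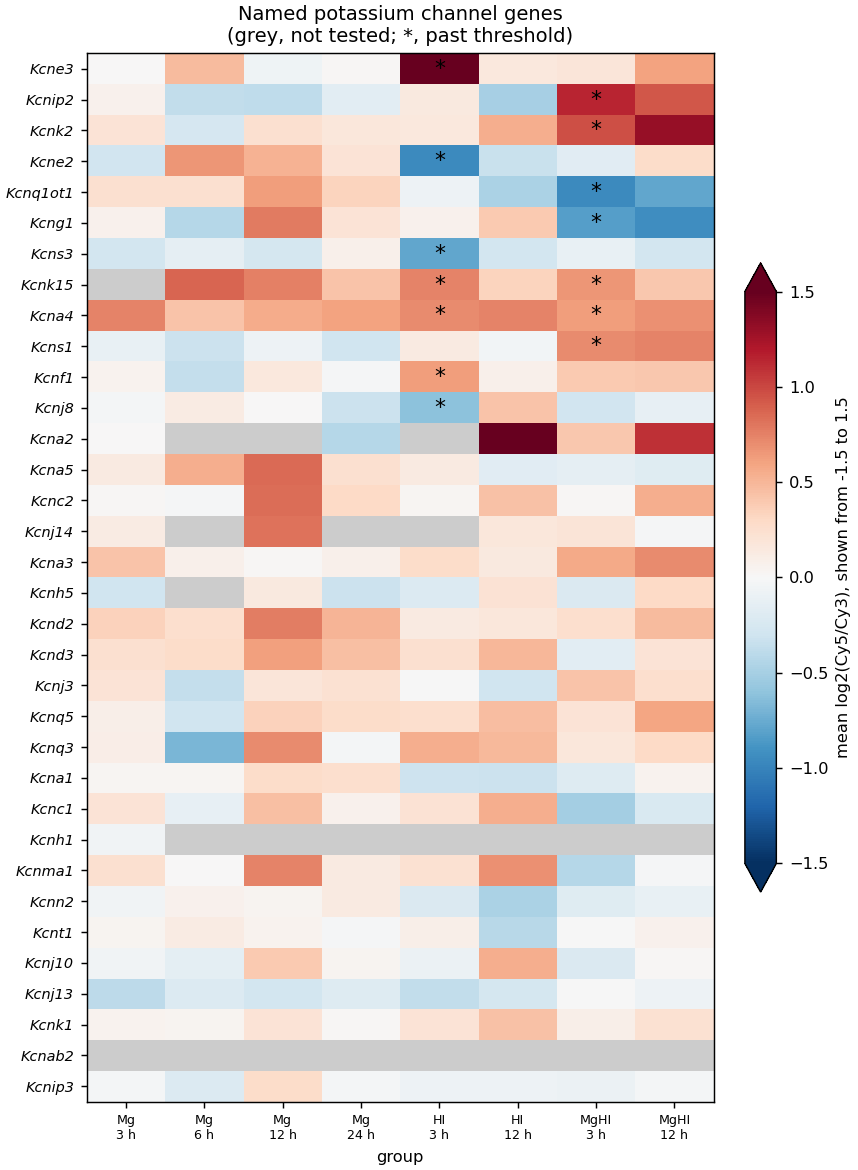
Mean log2(Cy5/Cy3) of the named potassium channel genes (vertical axis) in each of the 8 groups (horizontal axis), red for higher and blue for lower in Cy5, grey for not tested and a star for called genes. The colour scale ends at 1.5, so Kcne3 at 3 h after HI (2.25) and Kcna2 at 12 h after HI (1.81) are at its end.

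Among auxiliary subunits, Kcne3, whose protein modifies several Kv channels, had the highest ratio. Its log2 ratios at 3 h after HI were 2.51, 2.33 and 1.90 on the 3 arrays, a mean of 2.25 ± 0.31 (SD, n = 3), or 4.75-fold (limma adjusted p = 0.00855). All arrays lay far above 0 and above every array of the Mg groups, whose highest values were 0.59, 1.29, 0.56 and 0.15 at 3, 6, 12 and 24 h. The mean fell to 1.05 with no background subtraction and to 0.77 with normexp correction, and the gene was called under both. A second Kcne3 probe gave 2.01 ± 0.14 (limma adjusted p = 0.00413). The arrays at 12 h after HI read -0.49, 1.07 and -0.10, on both sides of 0. There the first was not well above background in either dye and the third not in Cy5, so the within-slide comparison of the times has no measured 12 h level. The change between the times, -2.09 on the log2 scale, had an adjusted p of 0.095 by limma.

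Kcne2, whose protein is an auxiliary subunit known from the choroid plexus and heart, read -1.32, -0.75 and -0.81 at 3 h after HI. The mean was -0.96 ± 0.31 (SD, n = 3), 1.95-fold lower (limma adjusted p = 0.0232), and no array reached 0. In the Mg groups its arrays were widely spread, from -1.76 to 0.90 at 3 h and from -0.47 to 2.48 at 12 h. Of the 6 choroid plexus markers tested at 3 h after HI, none was called, their median was -0.07, and their median per array ranged from -0.32 to 0.01. Among them Otx2 read -0.35 (limma adjusted p = 0.0443), under the fold threshold, and Ttr 0.01. Their part in the Kcne2 value was not tested.

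Of the silent Kv subunits, Kcnf1 (Kv5) was called higher and Kcns3 (Kv9) lower at 3 h after HI. Kcnf1 read 0.63, 0.77 and 0.47, a mean of 0.63 ± 0.15 (SD, n = 3, limma adjusted p = 0.0215). A second Kcnf1 probe gave 0.68 ± 0.12 (limma adjusted p = 0.0168), so the 2 probes moved alike. Kcns3 read -0.83, -0.84 and -0.66, a mean of -0.78 ± 0.10 (SD, n = 3, 1.71-fold lower, limma adjusted p = 0.0129). With normexp correction the means of Kcnf1 and Kcns3 were 0.42 and -0.36, under the fold threshold. With no background subtraction they were 0.48 and -0.48, also under it. The calls were lost in 6 and 5 of 12 alternatives, that of Kcnf1 also without array 1 or array 2. The Kcnf1 ratio differed from that of the Mg group at 3 h by 0.58 (limma adjusted p = 0.173). Kcns3 values in the Mg group at 3 h were smaller, between -0.32 and -0.15. The Kcns3 ratio differed from that of the Mg group at 3 h by -0.51 (limma adjusted p = 0.0723), which missed the threshold.

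Among inward rectifiers, Kcnj8 encodes the pore of the vascular ATP-sensitive channel. It read -1.0, -0.51 and -0.35 at 3 h after HI, a mean of -0.62 ± 0.34 (SD, n = 3, limma adjusted p = 0.0483). The mean was -0.26 with no background subtraction and -0.16 with normexp correction. The call was lost in 7 of 12 alternatives, these corrections and the fits without array 1 or array 2 among them. All 3 arrays at 12 h after HI lay above 0, at 0.29, 0.39 and 0.62 (mean 0.43 ± 0.16, limma adjusted p = 0.115). The 12 h and 3 h arrays did not overlap, also on their shared slide (0.29 and -0.35), and the difference of 1.05 had an adjusted p of 0.0932 by limma. Abcc9, the sulfonylurea receptor that pairs with Kcnj8, read -0.15 ± 0.33 at 3 h and 0.76 ± 0.33 at 12 h (limma adjusted p = 0.465 and 0.0829). Pericyte and smooth muscle markers, 5 of 6 tested, had a median of 0.18 at 3 h and of 0.16 at 12 h, with none called, and did not move as one. At 12 h Cspg4, which the oligodendrocyte list also holds, was 0.77 ± 0.02 and Pdgfrb 0.77 ± 0.66 (limma adjusted p = 0.0736 and 0.141), with Acta2 at 0.16, Tagln at -0.22 and Rgs5 at -0.38. At 3 h the 5 lay between -0.14 and 0.32. Their part in the Kcnj8 values was not tested. Kcnj12, another inward rectifier, was 0.54 lower on the log2 scale at 3 h (-0.54 ± 0.05, limma adjusted p = 0.0179), under the fold threshold.

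Among leak channels, Kcnk15 read 1.00, 0.69 and 0.53 at 3 h after HI, a mean of 0.74 ± 0.24 (SD, n = 3, limma adjusted p = 0.025). Its Cy3 signal was well above background on 1 of these 3 arrays. The mean was 0.29 with no background subtraction and 0.16 with normexp correction, and the call was lost under both, with no filter on dim probes, by the methods' t-test and without array 1. It was also 0.87 ± 0.95 in the Mg group at 6 h (n = 7, limma adjusted p = 0.29) and 0.75 ± 0.89 at 12 h (n = 4, limma adjusted p = 0.32), where the arrays were widely spread. In the Mg group at 3 h, where it was too dim to be tested, it read 0.73 ± 1.13. Kcnk15 was higher in Cy5 on 27 of 31 arrays, with a mean of 0.65. With no dye swap, treatment and dye cannot be told apart for it. Kcnv1 (Kv8) was -0.39 ± 0.10 at 3 h after HI (n = 3, limma adjusted p = 0.033), under the fold threshold.

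At 12 h after HI, 0 of 76 tested genes were called, against 0.0137% of all genes. At an unadjusted p under 0.05 by limma, 13 were higher (17.1%, against 14% of all genes) and 10 lower (13.2%, against 13.9%). The count depended on the array left out. Without array 3, 15 of 73 tested genes (20.5%) were called, against 18.3% of all genes, 12 of them higher. Without array 1, 5 of 74 (6.76%) were called, against 4.27% of all genes. Kcna2 (Kv1), a channel of axons, read 2.58, 2.03 and 0.81, all above 0 (mean 1.81 ± 0.90, SD, n = 3, limma adjusted p = 0.0798). Its Cy3 signal was well above background on the third array alone, so the 2 higher ratios rest on a dim channel. The mean was 0.32 with no background subtraction and 0.19 with normexp correction. Its second probe, not bright enough to be tested, read -0.15 ± 0.17 there. Kcna2 was called without array 1 and without array 3. Kcnu1, a BK-like channel known from sperm, was -0.68 ± 0.22 (limma adjusted p = 0.08). Kcnrg, a regulator of Kv channels, was 0.54 ± 0.05 (limma adjusted p = 0.0822).

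In the MgHI group at 3 h, 7 of 75 tested genes (9.33%) were called, against 5.47% of all genes. Kcnip2, Kcnk2, Kcns1, Kcnk15 and Kcna4 were higher in Cy5, against 4.01% of all genes, and Kcnq1ot1 and Kcng1 were lower in Cy5, against 1.45%. The median over the 75 genes was -0.07, against -0.04 over all genes. At an unadjusted p under 0.05, 15 genes were higher (20%, against 13.6%) and 10 lower (13.3%, against 12.9%). The count of calls was 12 without array 1, 4 without array 2 and 9 without array 3. These were 16.2%, 5.33% and 12.2% of the genes tested, against 9.25%, 4% and 6.68% of all genes. The count was 4 with no background subtraction and 3 with normexp correction, where Kcnip2, Kcng1 and Kcna4 were called and Kcnk2 fell to 0.48. By the methods' t-test with its adjustment, 0 genes were called.

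Kcnip2, an auxiliary subunit that binds calcium and controls Kv4 channels, read 1.18, 1.08 and 1.17 in the MgHI group at 3 h, a mean of 1.14 ± 0.05 (SD, n = 3, 2.21-fold, limma adjusted p = 0.00767). The arrays differed little. With normexp correction the mean was 0.72. At 12 h it read 1.24, 1.09 and 0.46, a mean of 0.93 ± 0.42 (SD, n = 3, limma adjusted p = 0.0832). In the HI group at 3 h its values were 0.11, 0.04 and 0.31, below all MgHI values of that time. In the MgHI group at 3 h, 2 of 4 Kcnip genes were higher at an unadjusted p under 0.05 by limma, against 13.6% of all genes. The lowest, Kcnip3, read -0.09 ± 0.18 (limma adjusted p = 0.622). Kcnip2 was below 0 on every array at 12 h after HI (-0.5 ± 0.4, limma adjusted p = 0.16). The same held at 12 h after MgSO4 (-0.38 ± 0.25, limma adjusted p = 0.305).

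Kcnk2, a leak channel opened by stretch and lipids, read 0.83, 1.03 and 1.05 in the MgHI group at 3 h (mean 0.97 ± 0.12, SD, n = 3, 1.96-fold, limma adjusted p = 0.00926). At 12 h it read 1.34, 1.44 and 1.16 (mean 1.31 ± 0.14, limma adjusted p = 0.0829), the highest mean of the group. All 6 MgHI arrays lay well above 0. In the HI group Kcnk2 was 0.16 ± 0.15 at 3 h and 0.55 ± 0.34 at 12 h.

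Among silent subunits, Kcns1 (Kv9) read 0.53, 0.93 and 0.66 in the MgHI group at 3 h, a mean of 0.71 ± 0.20 (SD, n = 3, limma adjusted p = 0.0207), and 0.43 with normexp correction, where it was not called. Kcng1 (Kv6) was lower in Cy5, at -1.28, -0.82 and -0.39, a mean of -0.83 ± 0.44 (SD, n = 3, limma adjusted p = 0.0404). At 12 h Kcns1 was 0.74 ± 0.31 and Kcng1 was -0.93 ± 0.60 (n = 3 each, limma adjusted p = 0.0832 and 0.0993). The sign of each was thus the same at both times. Kcnk15 read 0.52, 0.61 and 0.86 at 3 h (mean 0.66 ± 0.18, limma adjusted p = 0.0216), which was 0.31 with no background subtraction and 0.13 with normexp correction, called under neither.

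Kcnq1ot1 is not a channel but the long antisense RNA that silences the imprinted region around Kcnq1. It read -0.90, -0.96 and -1.04 in the MgHI group at 3 h (mean -0.96 ± 0.07, SD, n = 3, 1.95-fold lower in Cy5, limma adjusted p = 0.00863). At 12 h it read -0.53, -0.85 and -0.96 (mean -0.78 ± 0.23, limma adjusted p = 0.0829). At 3 h its mean was -0.36 with no background subtraction and -0.29 with normexp correction, and it was called under neither. In the Mg group at 12 h it was above 0 on all 4 arrays, at 0.62, 0.40, 0.94 and 0.54 (limma adjusted p = 0.273), with Cy3 well above background on 1 of them. Its second probe, tested at 3 h, was -0.80 ± 0.98 (limma adjusted p = 0.185).

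**Figure D2:**
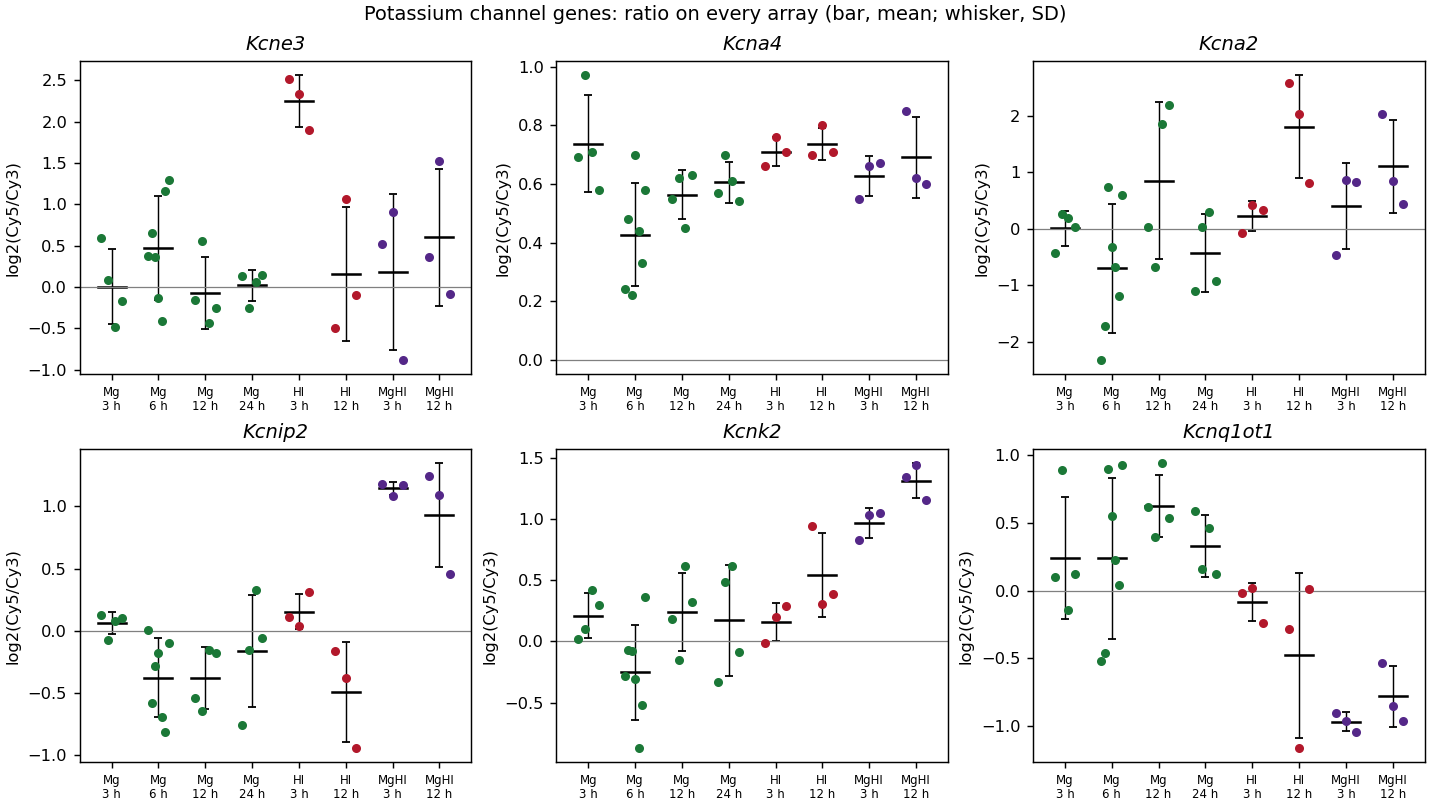
Log2(Cy5/Cy3) on every array (points) of 6 potassium channel genes, with the mean (bar) and SD (whisker) of each group. Kcne3 lies above 1.8 on the 3 arrays at 3 h after HI, Kcnip2 and Kcnk2 lie above 0 on all MgHI arrays, and Kcna4 lies above 0 on all 31 arrays.

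In the MgHI group at 12 h, 0 of 75 tested genes were called, as 0% of all genes. At an unadjusted p under 0.05 by limma, 16 genes were higher (21.3%, against 13.8% of all genes) and 6 lower (8%, against 10.4%). Without array 3, Kcnk2, Kcnip2 and Kcns1 were called, 3 of 75 genes (4%), against 2.96% of all genes. Kcna2 was not well above background in Cy3 on any array. In the background-subtracted signals its Cy5 signal was at least 1.96-fold higher (limma adjusted p = 0.116). This bound holds for those signals only. The mean log2 ratio was 0.35 with no background subtraction and 0.22 with normexp correction.

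After MgSO4 alone no potassium channel gene was called at 3, 6, 12 or 24 h, among 74, 69, 72 and 72 tested. The shares of all genes called were 0%, 0.0365%, 0% and 0.00714%. Of the 72 tested at 12 h, 16 were higher at an unadjusted p under 0.05 by limma (22.2%, against 10.7% of all genes) and 4 lower (5.56%, against 5.17%), and their median was 0.18, against 0.02 over all genes. Together the 20 genes became 31 without array 2, 12 without array 1 and 10 without array 3 or array 4, and with normexp correction they were 10 and the median 0.03. The median was -0.03 on the lowest of the 4 arrays and 0.29 on the highest. At 3 h the 6 genes at this p became 25 without array 1 and 3 without array 2. At the other times the shares higher were 4.05%, 11.6% and 5.56% at 3, 6 and 24 h, against 4.29%, 7.48% and 6.39% of all genes. Those lower were 4.05%, 5.8% and 1.39%, against 4.92%, 5.94% and 4.95%.

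**Figure D3:**
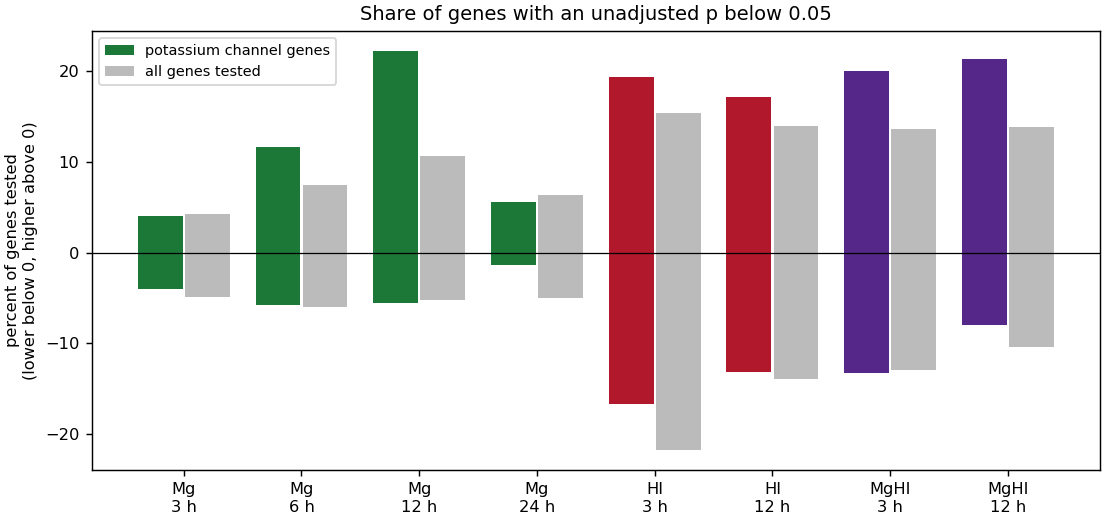
Percent of genes with an unadjusted p under 0.05 (limma), higher above 0 and lower below 0, for the potassium channel genes (coloured) and all genes tested (grey), by group. At 12 h after MgSO4, 22.2% of the potassium channel genes were higher, against 10.7% of all genes.

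Several Kv channels that repolarise neurons had means above 0 at 12 h after MgSO4, with none called. Of the genes tested, 5 of 6 Kv1, 3 of 4 Kv3, 2 of 3 Kv4 and 3 of 3 Kv7 were above 0. Over all genes the share was 53.1%, and the lowest Kv1, Kv3 and Kv4 means were -0.19, -0.34 and -0.1. This was not particular to these families. Of all 72 potassium channel genes tested, 50 (69.4%) were above 0, among them 9 of 12 inward rectifiers and 8 of 11 leak channels. Of the Kv9 genes, 0 of 3 were above 0. Kcnc2 (Kv3) read 0.69, 0.26, 0.89 and 1.51 (mean 0.84 ± 0.52, SD, n = 4, limma adjusted p = 0.305). Kcnd2 (Kv4) read 0.79, 0.17, 0.76 and 1.35 (mean 0.77 ± 0.48, SD, n = 4, limma adjusted p = 0.305). Both were above 0 on every array. With normexp correction Kcnc2 was 0.10 and Kcnd2 0.43. Kcnd3 (Kv4) was 0.62 ± 0.35, the BK channel Kcnma1 0.74 ± 0.62 and Kcnq3 (Kv7) 0.71 ± 0.70 (limma adjusted p from 0.305 to 0.313). Their means with normexp correction were 0.31, 0.19 and 0.03, and the Cy3 signal of Kcnq3 was well above background on 2 of the 4 arrays. At 24 h Kcnd2 read 0.44, 0.66, 0.45 and 0.48 and Kcnd3 was 0.45 ± 0.17, with limma adjusted p of 0.243 and 0.303. Kcna5 (Kv1) at 12 h was 0.25, 0.31, 2.27 and 0.56, so 1 array, dim in Cy3, carried its mean of 0.85 ± 0.96 (limma adjusted p = 0.316), which was 0.37 without that array and 0.07 with normexp correction. Kcnj14, an inward rectifier, was not well above background in Cy3. In the background-subtracted signals its Cy5 signal was at least 1.18-fold higher (limma adjusted p = 0.305), a bound that holds for those signals only. Its mean log2 ratio was 0.14 with no background subtraction and 0.04 with normexp correction. The 6 blood markers, none called, had a median of -0.36 at 12 h, where their median per array ranged from -0.56 to -0.12, and of -0.39 at 24 h, from -0.61 to -0.32. Markers of neurons, astrocytes and the oligodendrocyte lineage, 6 of each and none called, had medians of 0.21, 0.22 and 0.12 at 12 h. Their medians per array ranged from -0.30 to 0.51, from 0.07 to 0.25 and from -0.25 to 0.43. At an unadjusted p under 0.05 by limma, 1, 2 and 2 of each 6 were higher, against 10.7% of all genes, and 0 lower. Medians of microglia, pericyte and smooth muscle, endothelial and choroid plexus markers were -0.23, -0.1, 0.05 and 0.09 at 12 h, with none called. The part of these markers in the channel values was not tested.

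At 3 h after MgSO4, Kcna3 (Kv1) was 0.43 ± 0.20 (limma adjusted p = 0.376), above 0 on all 4 arrays, with Cy3 well above background on 2 of them. Its mean was 0.09 with no background subtraction and 0.10 with normexp correction. At 6 h the direction is not settled. Arrays 3 and 7, on the same slide, correlated below 0 with arrays 1, 2 and 6 over all probes (r from -0.42 to -0.22), and with each other at 0.56. Their median ratio for the potassium channel genes was 0.27 and 0.35, against -0.14, -0.19 and -0.18 on arrays 1, 2 and 6. With all 7 arrays, Kcnj3 was -0.36 ± 0.29 and Kcnq5 was -0.30 ± 0.22 (limma adjusted p = 0.252 and 0.269). Their means were -0.04 and -0.13 with no background subtraction and -0.02 and -0.07 with normexp correction. Kcnj3 was well above background in Cy5 on 2 of the 7 arrays. Of the 69 genes tested on all 7 arrays, 0 were called. Arrays 3 and 7 were picked by their own ratios, so a fit without them cannot settle the direction. Without arrays 3 and 7, 9 of 71 genes (12.7%) were called, against 8.19% of all genes. Those were Kcng2 (-1.5), Kcnq3 (-1.28), Kcna2, Kcnk3 (-0.81), Kcnj9 (-0.79), Kcnc4 (-0.78), Kcnf1 (-0.75) and Kcng1 (-0.74), all lower, and Kcnmb2 (0.67), which was higher. Of the 5 arrays kept, Kcng2 and Kcnq3 were well above background in Cy5 on 1 each. Kcna2 was so on none, and its Cy3 signal was at least 1.39-fold higher in the background-subtracted signals.

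**Figure D4:**
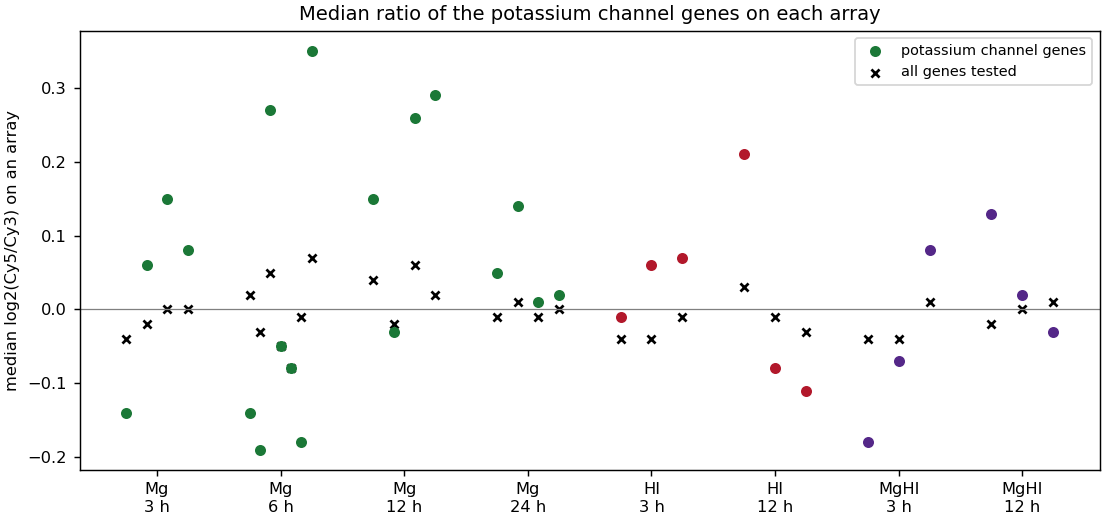
Median log2(Cy5/Cy3) of the potassium channel genes (dots) and of all genes tested (crosses) on each array, by group. Arrays 3 and 7 of the Mg group at 6 h lie at 0.27 and 0.35, above the other arrays of that group.

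Kcna4 (Kv1), which carries fast-inactivating A-type current, was the only potassium channel gene above 0 on all 31 arrays, of 67 tested in all groups, against 0.557% of 13109 genes. Its group means were 0.74, 0.43, 0.56 and 0.60 for MgSO4 at 3, 6, 12 and 24 h, 0.71 and 0.74 for HI and 0.63 and 0.69 for MgHI at 3 and 12 h. The Cy5 sample differed between these groups, and the means kept between 0.43 and 0.74. With no dye swap, the effect of treatment and that of the dye cannot be told apart. It was called in the HI and MgHI groups at 3 h (limma adjusted p = 0.0124 and 0.0177). The difference between the HI and Mg groups was -0.03 at 3 h (limma adjusted p = 0.921).

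A fixed set of channels was followed whatever its values, among them Kcnq3 of the M-current, the astrocyte channel Kcnj10, the choroid plexus channel Kcnj13 and the SK channel Kcnn2. Kcnj10 was 0.54 ± 0.34 at 12 h after HI (limma adjusted p = 0.122) and Kcnn2 was -0.48 ± 0.23 (limma adjusted p = 0.115), and Kcnj13 was -0.37 ± 0.18 at 3 h after HI (limma adjusted p = 0.0548). None of these 3 passed the test. Kcnq3 lay between -0.68 and 0.71 over the 8 group means and was called in none. Partners of the channels and transporters of potassium, a list of 30 genes that holds HCN channels, sodium pumps and cation-chloride cotransporters, had 24 to 26 genes tested in each group and 0 called in any. At an unadjusted p under 0.05, 8 of 26 were higher at 12 h after HI (30.8%, against 14% of all genes) and 4 lower (15.4%, against 13.9%). In the other groups 0 to 4 were higher and 0 to 3 lower. The shares higher were 0% to 16.7%, against 4.29% to 15.4% of all genes. Those lower were 0% to 11.5%, against 4.92% to 21.7%. The 16.7% was at 12 h after MgSO4, where 10.7% of all genes were higher.

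Different probes of a gene disagreed in places. Kcnj3 was -0.30 ± 0.44 by its brightest probe at 12 h after HI, where each dye was well above background on 1 of 3 arrays, and 1.17 ± 0.21 by its other probe (n = 3 each, limma adjusted p = 0.354 and 0.0735). Kcnc1 was -0.51 ± 0.28 in the MgHI group at 3 h by its brightest probe and 0.63 ± 0.27 by another (n = 3 each, limma adjusted p = 0.0664 and 0.0386). Each gene's value therefore rests on its brightest probe.

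Differences between groups were tested directly, since a dye effect of a probe that all arrays share cancels in them. The Mg arrays lay on other slides than the HI and MgHI arrays, so slide and treatment cannot be told apart. HI against Mg at 3 h gave 1 of 70 genes at an adjusted p under 0.05, against 0.78% of all genes. That gene was Kcne3, 2.24 higher (limma adjusted p = 0.0104), which missed the threshold without HI array 1 or HI array 2. At 12 h the count was 0 of 71 (0.0585% of all genes), and 7 at an unadjusted p under 0.05 (9.86%, against 12.8% of all genes). MgHI against Mg at 3 h gave 6 of 72, against 4.29% of all genes. These were Kcnip2 (log2 ratio difference 1.08, limma adjusted p = 0.00351), Kcns1 (0.81), Kcnk2 (0.76), Kcns2 (0.65), Kcnip1 (0.52) and Kcnq1ot1 (-1.21). Since the MgHI reference and dye are unsettled, these are differences of Cy5/Cy3 ratios and name no treatment as higher. The count was 1 without MgHI array 2, 2 without MgHI array 3 or Mg array 2, 3 without MgHI array 1, 4 without Mg array 3 or Mg array 4 and 8 without Mg array 1. At 12 h the count was 0 of 71 (0% of all genes), and 14 at an unadjusted p under 0.05 (19.7%, against 13.3%). Between 3 and 12 h, no gene differed in the HI group (0 of 72, against 0.042% of all genes, and 12 at an unadjusted p under 0.05, 16.7% against 17.4%) or in the MgHI group (0 of 75, 0%, and 5, 6.67% against 3.41%). Among the Mg times no gene differed either (0 of 67, 0%, and 6 at an unadjusted p under 0.05, 8.96% against 3.82%).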

How the data were processed

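The forebrain RNA of P5 NMRI mice was read on 31 two-colour arrays on 9 slides, scanned on 7 days. The authors extracted the scans with Agilent Feature Extraction 10.5.1.1, and the deposited intensities had background subtraction, a spatial trend correction and dye normalisation (linear and LOWESS) within each array. The authors' series table, deposited as log10 ratios, was used only as an alternative. Spots marked as outliers were left out, replicate spots averaged, and the log2 ratio of Cy5 to Cy3 taken from the processed signals. Genes were named through the RefSeq accession of each probe, which gave a single symbol for 27427 of 39429 probes (69.6%). The file headers name mm9, so probe positions are not given. Promoters came from RefSeq, GRCm38.p6. Each group was tested against 0 with limma 3.58.1 in R 4.3.3, with Benjamini-Hochberg adjustment over all probes tested. Both the small number of arrays and the dim signal of some genes limit the precision. Nothing beyond the label of biological replicates says that pools were independent. The members and lists were chosen with earlier results of these data known. Named genes were every gene called in a group, the 3 largest ratios of 1 sign in each group, and genes fixed by name. Other background corrections, filters, centring, the authors' table, the methods' test, other probe choice, slides, replicate numbers and left-out arrays were tried. The comparisons of the HI and MgHI groups with the Mg groups were chosen after seeing the data. The scripts were tested on simulated data. Results of some named genes are not reported here.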

Additional observations from a re-analysis of the deposited data

Results flagged for a closer look

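Among 16 groups of values looked at, chance would set apart about 1 in 20 groups. In the Mg group at 12 h, replicate 3 stood apart from the other 3 for Kcna5, at 2.27 on the log2 scale against 0.25, 0.31 and 0.56. In the Mg group at 24 h, replicate 2 stood apart for Kcnd2, at 0.66 against 0.44, 0.45 and 0.48. The difference of the HI and Mg groups at 3 h passed the test for Kcne3 (2.24; limma adjusted p = 0.0104). The difference of the MgHI and Mg groups at 3 h passed it for Kcnip2 (1.08), Kcnk2 (0.76), Kcns1 (0.81) and Kcnq1ot1 (-1.21), with limma adjusted p of 0.00351, 0.0161, 0.0153 and 0.0206. These groups lay on different slides.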

How the results depend on the processing

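With median signals and no background subtraction, the numbers of genes called were 1, 1, 3, 1, 4 and 3 in the Mg group at 3 h, the Mg group at 24 h, the HI group at 3 and 12 h and the MgHI group at 3 and 12 h. With normexp they were 1 in the Mg group at 3 h, 3 and 1 in the HI groups, and 3 and 1 in the MgHI groups. With no filter on dim probes 1 gene was called at 3 h after HI, and with the methods' t-test and adjustment 0 were called there and 0 in the MgHI group at 3 h. Counts at an unadjusted p under 0.05 became 10 (normexp) and 8 (t-test) in the Mg group at 12 h, 17 and 12 in the HI groups and 11 in the MgHI group at 3 h (t-test), 3 (normexp) and 8 (no filter) in the Mg group at 24 h, and 6 (both dyes above background), 4 (slide as a random block) and 32 (without replicates 3 and 7, with 9 called) in the Mg group at 6 h. The median of the Mg group at 12 h was 0.03 with normexp. The cause was not tested. In the comparisons, 1 gene differed between times after HI (no background subtraction), 2 between HI and Mg at 3 h (slide as a random block), 3 at 12 h and 2 between MgHI and Mg at 12 h (both normexp).

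Leaving out each array in turn gave ranges of the count at an unadjusted p under 0.05. They were 3 to 25, 9 to 21, 10 to 31 and 6 to 8 in the Mg groups in order of time, 18 to 31 and 6 to 35 in the HI groups, and 15 to 30 and 17 to 24 in the MgHI groups. At 6 h the highest, 21 and 19, came without replicates 3 and 7. Called were 3 to 7 and 0 to 15 in the HI groups and 4 to 12 and 0 to 3 in the MgHI groups. The shares of all genes called were 1.67% to 3.89% and 0.119% to 18.3% in the HI groups. In the MgHI groups they were 4% to 9.25% and 0% to 2.96%. In the comparisons, 0 to 1 differed for HI against Mg at 3 h, 1 to 8 for MgHI against Mg at 3 h, and 0 to 1 for the latter at 12 h. Of the HI calls at 12 h, 15 came without replicate 3, and the count at an unadjusted p was 6 without replicate 2. With the sign of the 6 h ratios turned, Kcna4, Kcnj3 and Kcnq5 read -0.43, 0.36 and 0.30. This reverses each value by construction and tests nothing.

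The replicate numbers did not pair the samples (same-numbered arrays of the HI groups correlated at -0.27, -0.05 and -0.23 in their deviations), and with the replicate block 0 genes differed between times, 1 between HI and Mg at 3 h and 0 at 12 h, and 8 and 0 between MgHI and Mg. Slide as a random block could not be fitted for groups of 3 arrays.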
